A study of Nicotiana benthamiana with 8 samples.

Results

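The contigs described here were the class III peroxidases of Nicotiana benthamiana leaves other than peroxidase 72, peroxidase 64 and the suberization-associated anionic peroxidases. They were taken from the 3305 listed contigs by their annotation: 43 contigs were annotated as peroxidases, none of these was an ascorbate or glutathione peroxidase, and 24 contigs with the Arabidopsis symbols AT5G66390, AT5G42180 and AT5G05340 were left out, which left 19 contigs. Of the 19 contigs, 4 were annotated as peroxidase 27 (PRX27, AT3G01190), 7 as peroxidase 3 (PRX3, carried in the table under the synonym RCI3) and 8 as other peroxidases. One of the last 8, Nbv5tr6393055, carried the annotation of a vanadium-dependent haloperoxidase-related protein, so it is not a class III peroxidase by its name and was kept only because the word peroxidase is part of its annotation. The rule itself used annotations and symbols and no measured value. It was set with earlier results of these data known, and the listed contigs had already been selected as changed.

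Class III peroxidases are secreted heme enzymes found in plants. They use hydrogen peroxide to oxidise phenolic compounds in the cell wall, and the radicals formed in this way couple into lignin, into the aromatic part of suberin and into bridges between wall proteins such as extensins. They can also release reactive oxygen species themselves. Plants hold large families of these genes, with members that differ in tissue and timing.

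RNA came from leaves of 4-week-old plants 4 days after infiltration with Agrobacterium tumefaciens. One group received MdMYB68, an apple MYB transcription factor fused to GFP under the 35S promoter, and the other received the empty vector. Both groups also received p19, a viral suppressor of gene silencing, so an infiltrated leaf without bacteria or p19 is not part of the comparison. Each of the 4 biological replicates per group pooled 3 plants with 4 leaves each, and the construct was expressed transiently from a constitutive promoter in whole leaf tissue. In such bulk samples, fewer cells of a type and less RNA per cell cannot be told apart.

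Mapped reads ranged from 29371282 to 32279582 in the 4 empty vector libraries and from 31244291 to 34080202 in the 4 MdMYB68 libraries, and the listed contigs took 7.57% ± 0.851 (SD, n = 4) and 18.0% ± 0.540 (SD, n = 4) of them. All contigs in the deposited table had been selected by the authors as changed in these same libraries. A test on it is therefore not independent evidence of a difference, and the share of listed contigs that pass the same test is given beside the first counts. No listed contig was annotated as MYB68, so the labels could not be checked with the infiltrated gene. Photosystem, chlorophyll-binding and Rubisco contigs, which mark leaf mesophyll, had reads in both groups. Levels are given as RPKM, meaning reads per kilobase of contig and per 1000000 mapped reads of the library, primary and alternate contigs counted together, which puts primary and alternate contigs of the transcriptome on the same scale. Sums over contigs are given as RPM, reads per 1000000 mapped reads without division by length. Where the empty vector group had no read at all, the ratio was formed with 3 reads for that whole group and is printed as "at least". Where it had 1 to 3 reads, a counting interval follows the ratio (95%, Clopper-Pearson, exact). Both cover only the error of counting reads.

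Of the peroxidases described here, PRX27 is the one for which the study designed primers to measure the transcript by RT-qPCR. Both primers belong to the contig Nbv5tr6224494 and are printed because they mark the transcript that carries the most PRX27 reads below. They are read 5′ to 3′, with no base set in capitals.
right primer, 20 bases: tgcaagcctggagatgtgac
left primer, 22 bases: tcagatgcgaacaatcctcttc

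In leaves expressing MdMYB68, 17 of the 19 peroxidase contigs were called higher and 2 were called lower than in empty vector leaves by edgeR's quasi-likelihood test at an adjusted p under 0.001. The same test called 95.9% of all listed contigs, 83.4% higher and 12.4% lower, so the numbers of calls are close to the background of the list. The sizes of the changes were less typical of it: the median log2 fold change was 8.35 over the 19 contigs and 3.34 over all 3305. With each contig that had no empty vector read set at its lower bound, these medians were 8.38 and 3.35. No read was found in any empty vector library for 6 of the 19 contigs (31.6%), against 179 of all listed contigs (5.42%). The RPKM of the groups did not overlap for any of the 19 contigs, which held for 100% of the listed contigs, and each reached the smallest two-sided p that an exact permutation test allows for 4 libraries against 4, 0.0286.

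**Figure D1:**
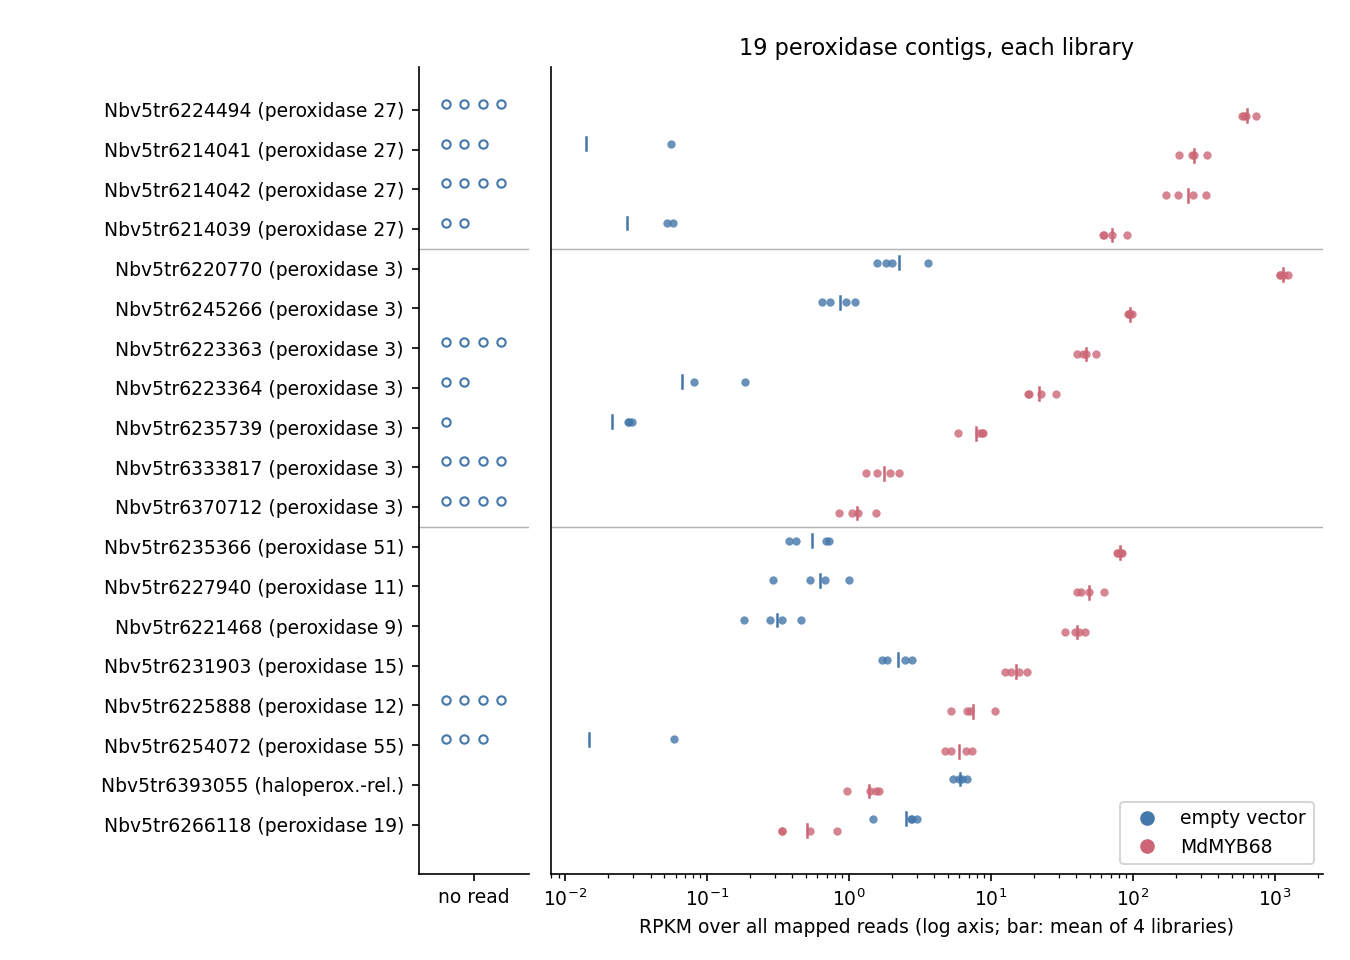
RPKM over all mapped reads (log axis) of the 19 peroxidase contigs in each of the 4 empty vector (blue) and 4 MdMYB68 (red) libraries, with vertical bars at the group means and open circles on the left for libraries without a read. For 17 contigs every MdMYB68 library lies above every empty vector library, and for Nbv5tr6393055 and Nbv5tr6266118 every one lies below.

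PRX27, a peroxidase gene known in Arabidopsis by the symbol AT3G01190, went from almost no reads to among the more abundant listed transcripts. Its main contig Nbv5tr6224494, 1236 bases long, had 0 reads in each of the 4 empty vector libraries and 23948, 26438, 28503 and 23403 reads in MdMYB68 replicates 1 to 4. These reads corresponded to 611.2, 627.6, 738.1 and 587.7 RPKM, with a mean of 641 ± 66.7 (SD, n = 4). Replicate 3 was the highest, and the other libraries lay close together. The level was at least 32658-fold higher with MdMYB68, the fitted log2 fold change was 17.61 (SE 0.33), and edgeR gave an adjusted p of 4.3e-09. Because the empty vector group had no read, the fitted value depends on the prior count of the method and is no bound, and the SE is not its error. The same holds for the other contigs without an empty vector read. Among all 3305 contigs, Nbv5tr6224494 ranked 31 by its level with MdMYB68 and 2 by its ratio or bound.

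The other 3 PRX27 contigs showed the same contrast at lower levels. Nbv5tr6214041 had 2 reads in empty vector replicate 2 and none in the other 3, and 269.5, 332.1, 261.3 and 211.5 RPKM in the MdMYB68 libraries, with a mean of 269 ± 49.5 (SD, n = 4). The ratio was 18570 with a counting interval from 5140 to 153346, and the log2 fold change was 13.86 (SE 0.39, edgeR adjusted p = 5.8e-10). Without empty vector replicate 2 this contig had no empty vector read and the ratio was at least 9180. That library alone thus turned the lower bound into a ratio, and the contig was called higher with and without it.

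Nbv5tr6214042 had no read in the empty vector libraries and 209.3, 171.4, 326.3 and 264.1 RPKM with MdMYB68, a mean of 243 ± 67.4 (SD, n = 4), which was at least 12135-fold higher (log2 fold change 16.19, SE 0.53, edgeR adjusted p = 6.8e-08). Nbv5tr6214039 had 4 reads in the empty vector group, at 0.0572 RPKM in replicate 1 and 0.0521 in replicate 4 and none in the other libraries. With MdMYB68 it reached 71.0, 61.7, 90.4 and 62.6 RPKM, with a mean of 71.4 ± 13.3 (SD, n = 4) and a ratio of 2614 (log2 fold change 11.19, SE 0.36, edgeR adjusted p = 1.1e-09). In all 4 PRX27 contigs the lowest MdMYB68 library was far above the highest empty vector library.

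Most reads of the 4 PRX27 contigs also matched another contig, and the table does not say which. Reads that matched no other contig made up 43.9% of the reads of Nbv5tr6224494, 0.184% of those of Nbv5tr6214042, 0.0183% of those of Nbv5tr6214039 and 0% of those of Nbv5tr6214041. Nbv5tr6224494 kept 44869 uniquely placed reads over the MdMYB68 libraries and none with the empty vector, and its log2 fold change on these reads was 16.42. For Nbv5tr6214042, 70 uniquely placed reads remained and the contig was still called higher, with a log2 fold change of 7.11. For Nbv5tr6214039 only 2 uniquely placed reads remained, both in MdMYB68 replicate 1, and the call was lost (log2 fold change 2.30, edgeR adjusted p = 0.25). Nbv5tr6214041 could not be measured on uniquely placed reads, and how many reads belong to each of the last 3 contigs is therefore uncertain.

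The proportions of these 3 contigs differed between replicates. Nbv5tr6214041 was above Nbv5tr6214042 in MdMYB68 replicates 1 and 2 and below it in replicates 3 and 4. Singly, the contigs Nbv5tr6214042, Nbv5tr6214041 and Nbv5tr6214039 varied between MdMYB68 libraries with coefficients of variation of 27.8%, 18.4% and 18.6%. Their sum varied with 11.5%, at 639.5, 652.1, 796.1 and 631.9 RPM. Nbv5tr6224494 held 54.2%, 54.3%, 53.4% and 53.5% of the PRX27 reads in the 4 MdMYB68 libraries, a share that hardly moved while those of Nbv5tr6214042 ranged from 14.6% to 23.7% and those of Nbv5tr6214041 from 17.0% to 25.9%. All 4 contigs together went from 0.0481 ± 0.0322 to 1472 ± 160 RPM (SD, n = 4), or from 6 reads in the empty vector group to 190022 reads in the MdMYB68 group.

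**Figure D2:**
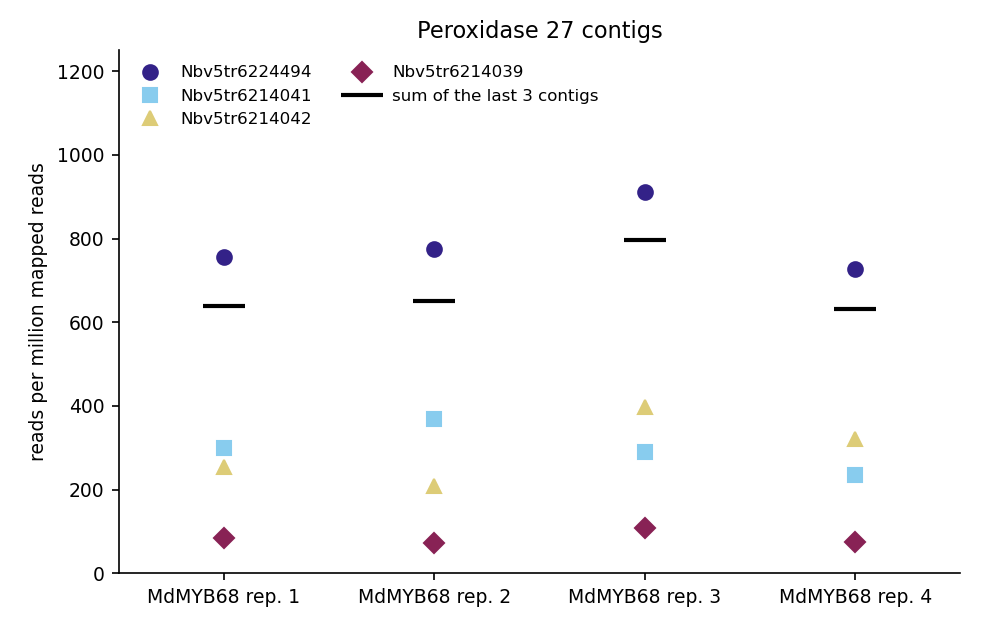
RPM of the 4 PRX27 contigs in the 4 MdMYB68 libraries, with a black bar for the sum of the last 3. Nbv5tr6214041 and Nbv5tr6214042 change places between replicates 2 and 3, whereas their sum with Nbv5tr6214039 stays between 631.9 and 652.1 in 3 libraries and reaches 796.1 in replicate 3.

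Peroxidase 3, known in Arabidopsis as RCI3 from its induction by cold, is one of the peroxidases needed there for lignification of the Casparian strip of the root endodermis. Its 7 contigs were all called higher with MdMYB68. Nbv5tr6220770, 1567 bases long, was the most abundant of the 19 contigs and ranked 10 among all listed contigs by its level. It had 2.02, 1.58, 3.62 and 1.82 RPKM in the empty vector libraries and 1092, 1083, 1237 and 1159 RPKM in the MdMYB68 libraries. Empty vector replicate 3 and MdMYB68 replicate 3 were the highest of their groups. The means of 2.26 ± 0.926 and 1143 ± 71.4 (SD, n = 4 each) differed 506-fold, with a log2 fold change of 8.98 (SE 0.31, edgeR adjusted p = 1.7e-09). Uniquely placed reads made up 49.4% of its reads, and on these the log2 fold change was 8.87.

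Nbv5tr6245266, the longest of the peroxidase contigs with 2508 bases, followed at a lower level. It had 0.733, 0.648, 0.952 and 1.11 RPKM with the empty vector, against 96.0, 94.0, 98.3 and 91.7 RPKM with MdMYB68. This was the narrowest spread of the 19 contigs, with a coefficient of variation of 2.95% over the MdMYB68 libraries. The means of 0.861 ± 0.210 and 95.0 ± 2.80 (SD, n = 4 each) differed 110-fold (log2 fold change 6.78, SE 0.19, edgeR adjusted p = 5.3e-10).

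The remaining peroxidase 3 contigs had few or no empty vector reads. Nbv5tr6223363 had no read with the empty vector and 40.4, 44.3, 54.9 and 47.1 RPKM with MdMYB68, at least 2780-fold more (mean 46.7 ± 6.14, SD, n = 4, log2 fold change 14.06, SE 0.34, edgeR adjusted p = 1.3e-08). Nbv5tr6223364 had 0.0809 and 0.184 RPKM in empty vector replicates 1 and 3, none in the other 2 libraries, and 18.1, 18.7, 28.5 and 22.6 RPKM with MdMYB68. Its mean of 22.0 ± 4.79 (SD, n = 4) was 332-fold above the empty vector mean (log2 fold change 8.35, SE 0.54, edgeR adjusted p = 1.1e-07). Without empty vector replicate 3 the ratio was 864, with an interval from 295 to 4191, so that library weighs on the size of the ratio but not on its direction.

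Nbv5tr6235739 had 1 read in each of empty vector replicates 2, 3 and 4, and 5.83, 8.72, 8.76 and 8.19 RPKM with MdMYB68. The ratio was 363 with a counting interval from 124 to 1761 (log2 fold change 8.28, SE 0.41, edgeR adjusted p = 1.7e-08). Nbv5tr6333817 and Nbv5tr6370712 were the weakest, with no empty vector read. The first, which carried no Arabidopsis symbol, had 2.25, 1.58, 1.95 and 1.32 RPKM with MdMYB68, at least 70.6-fold more (log2 fold change 8.76, SE 0.62, edgeR adjusted p = 4.4e-06). The second had 1.15, 0.845, 1.55 and 1.05 RPKM, at least 55.6-fold more (log2 fold change 8.42, SE 0.65, edgeR adjusted p = 7.3e-06).

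All 7 peroxidase 3 contigs together went from 5.81 ± 1.80 to 2136 ± 131 RPM (SD, n = 4 each), a 368-fold difference. Nbv5tr6220770 held 83.8% of these reads with MdMYB68 and 60.8% with the empty vector, and Nbv5tr6245266 held 11.2% and 37.4%. Within the MdMYB68 libraries the share of Nbv5tr6220770 stayed between 83.5% and 84.3%. The uniquely placed share was 67.9% for Nbv5tr6245266, 26.1% for Nbv5tr6223364 and 8.73% for Nbv5tr6223363. It was 99.7% for Nbv5tr6235739 and 100% for Nbv5tr6333817, while Nbv5tr6370712 had no uniquely placed read.

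**Figure D3:**
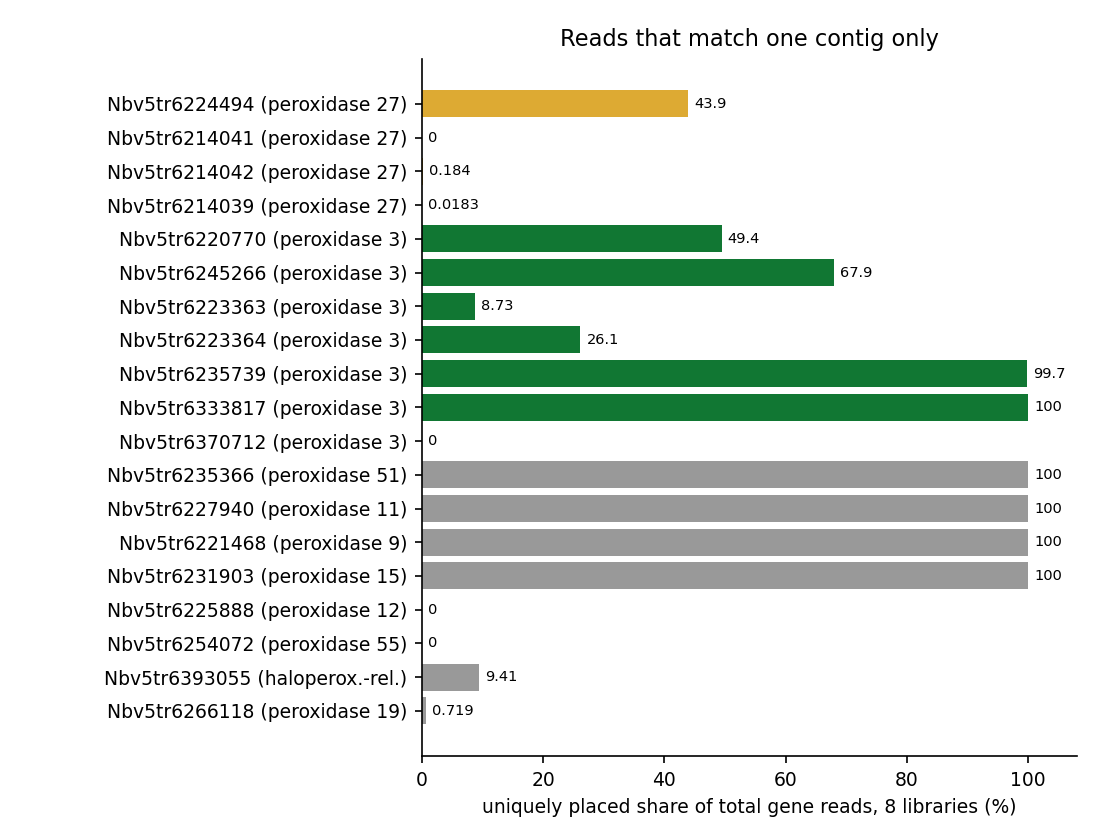
Share of total gene reads that matched one contig only, in percent, over all 8 libraries, for the 19 contigs (yellow, PRX27; green, peroxidase 3; grey, others). The share is 43.9% for Nbv5tr6224494 and 49.4% for Nbv5tr6220770, close to 0 for the other PRX27 contigs, and 99% or more for 6 contigs.

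Of the other 8 contigs, 6 were called higher. Nbv5tr6235366, annotated as peroxidase 51, was the most abundant. It carried the Arabidopsis symbol AT5G14130, as did Nbv5tr6254072, which was annotated as peroxidase 55, so the labels do not settle whether these are different peroxidases. Nbv5tr6235366 had 0.690, 0.375, 0.423 and 0.721 RPKM with the empty vector, against 77.4, 79.0, 83.0 and 83.8 RPKM with MdMYB68. The 4 MdMYB68 libraries were close together. The means of 0.552 ± 0.178 and 80.8 ± 3.10 (SD, n = 4 each) differed 146-fold (log2 fold change 7.19, SE 0.20, edgeR adjusted p = 5.6e-10), and every read was uniquely placed.

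Peroxidase 9, peroxidase 11 and peroxidase 15 were each read from a contig with nearly all reads uniquely placed. Peroxidase 9 acts in Arabidopsis with peroxidase 3 and others in Casparian strip lignification and has a part in the wall of the tapetum of the anther. Its contig Nbv5tr6221468 (AT1G44970) had 0.456, 0.183, 0.278 and 0.337 RPKM with the empty vector, against 33.5, 39.2, 41.5 and 46.2 RPKM with MdMYB68, a 128-fold difference of the means (log2 fold change 6.99, SE 0.23, edgeR adjusted p = 1.3e-09). Nbv5tr6227940, annotated as peroxidase 11 (AT1G68850), had 0.290, 0.680, 1.00 and 0.528 RPKM with the empty vector, against 40.1, 49.0, 42.9 and 63.1 RPKM with MdMYB68, a 78.0-fold difference (log2 fold change 6.27, SE 0.31, edgeR adjusted p = 1.6e-08).

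Nbv5tr6231903, annotated as peroxidase 15, already had 2.78, 2.47, 1.71 and 1.86 RPKM with the empty vector. With MdMYB68 it had 13.9, 15.9, 12.6 and 17.9 RPKM, and the means of 2.21 ± 0.503 and 15.1 ± 2.31 (SD, n = 4 each) differed 6.83-fold, the least of the 17 contigs called higher. The log2 fold change was 2.77 (SE 0.21, edgeR adjusted p = 3.2e-07), below the median of 3.34 over all listed contigs. Its direction depended on the scaling, and the log2 fold change became -0.17 under TMM factors and -0.15 under the size factors of DESeq2, both computed on the listed contigs alone.

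Peroxidase 12 and peroxidase 55 were represented by contigs without any uniquely placed read. Nbv5tr6225888, annotated as peroxidase 12, had no empty vector read and 10.6, 7.09, 5.27 and 6.76 RPKM with MdMYB68, at least 490-fold more (log2 fold change 11.55, SE 0.61, edgeR adjusted p = 8.9e-07). Nbv5tr6254072, annotated as peroxidase 55 with the symbol AT5G14130, was the shortest of the 19 contigs with 580 bases. It had 1 read in empty vector replicate 1 and 4.73, 7.34, 5.24 and 6.69 RPKM with MdMYB68. The ratio was 433 with a counting interval from 77.3 to 17137 (log2 fold change 8.18, SE 0.54, edgeR adjusted p = 1.4e-07), and without empty vector replicate 1 it was at least 110. These values rest on reads that matched at least 1 other contig as well.

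Both contigs that were lower with MdMYB68 belonged to the alternate set and had few uniquely placed reads. Nbv5tr6393055, the haloperoxidase-related contig (AT3G61770), had 5.41, 6.76, 6.21 and 5.95 RPKM with the empty vector, the highest empty vector level of the 19, and 1.41, 1.62, 0.976 and 1.54 RPKM with MdMYB68. The means of 6.08 ± 0.562 and 1.39 ± 0.288 (SD, n = 4 each) differed 4.39-fold (log2 fold change -2.13, SE 0.22, edgeR adjusted p = 4.0e-06), and 9.41% of its reads were uniquely placed.

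Nbv5tr6266118, annotated as peroxidase 19 (AT2G34060), was the only contig carrying the name of a class III peroxidase that was lower. It had 2.75, 2.78, 1.48 and 3.02 RPKM with the empty vector, against 0.535, 0.338, 0.825 and 0.337 RPKM with MdMYB68. The means of 2.51 ± 0.694 and 0.509 ± 0.230 (SD, n = 4 each) differed 4.93-fold (log2 fold change -2.30, SE 0.37, edgeR adjusted p = 1.2e-04). Only 4 of its reads were uniquely placed, all with the empty vector, and with these reads alone the log2 fold change was -3.19 and the call was lost (edgeR adjusted p = 0.10).

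Summed over the 19 contigs, the peroxidase reads went from 23.1 ± 0.468 to 3855 ± 275 RPM (SD, n = 4 each), a 167-fold difference, and made up 0.385% of all mapped reads with MdMYB68. The composition of this sum differed between the groups. With the empty vector, PRX27 contributed 0.210% of the reads and the 8 other contigs 74.7%, of which the haloperoxidase-related contig alone held 37.3% of the whole sum. With MdMYB68, PRX27 contributed 38.2% and the 8 other contigs 6.41%, and Nbv5tr6220770 alone held 46.4% of the whole. Of the reads of all 43 peroxidase contigs, the 19 described here held 20.2% with the empty vector and 39.5% with MdMYB68.

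**Figure D4:**
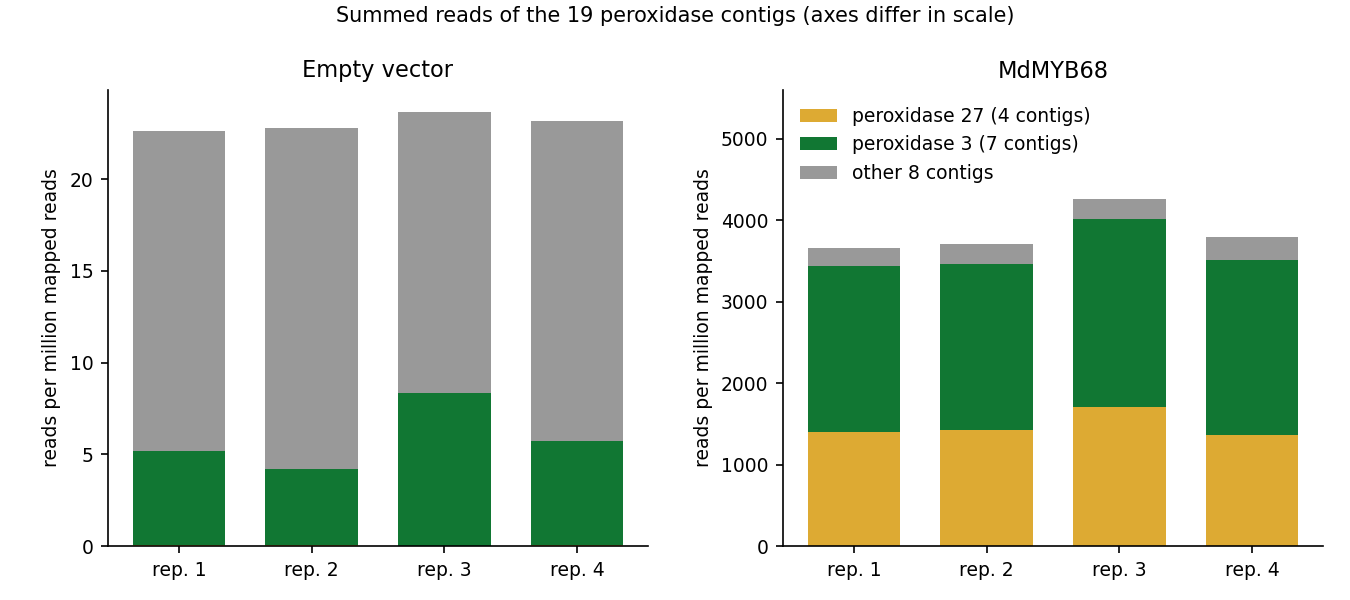
RPM summed over the 19 peroxidase contigs in each library, split into PRX27 (yellow), peroxidase 3 (green) and the other 8 contigs (grey), with both axes starting at 0 and differing in scale. The bars lie between 22.6 and 23.7 with the empty vector, mostly grey and without visible yellow, and between 3666 and 4259 with MdMYB68, where replicate 3 is the highest.

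By level in the MdMYB68 libraries the order began with Nbv5tr6220770 (peroxidase 3), then Nbv5tr6224494 (PRX27), and the ranges of these contigs over the 4 libraries overlapped neither with each other nor with the next. Nbv5tr6214041 and Nbv5tr6214042, which followed, overlapped. Nbv5tr6245266 came next without overlap to its neighbours. From Nbv5tr6235366 through Nbv5tr6214039, Nbv5tr6227940 and Nbv5tr6223363 to Nbv5tr6221468 each contig overlapped with the one after it, so the order of neighbours is not resolved. Contigs further apart in this run could differ: Nbv5tr6235366 lay wholly above Nbv5tr6227940, Nbv5tr6223363 and Nbv5tr6221468. Below them, Nbv5tr6223364 and Nbv5tr6231903 each stood apart, and Nbv5tr6235739, Nbv5tr6225888 and Nbv5tr6254072 overlapped in turn, as did Nbv5tr6333817, Nbv5tr6393055 and Nbv5tr6370712, with Nbv5tr6266118 apart at the end. In the empty vector libraries the order was different, led by Nbv5tr6393055, and no contig below Nbv5tr6231903 was separated from its neighbour.

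The MdMYB68 libraries did not all contribute alike. Of the 17 contigs called higher, 9 were highest in MdMYB68 replicate 3, 4 in replicate 4 and 2 in each of replicates 1 and 2, and 7 were lowest in replicate 1. Replicate 3 was also where all listed contigs together took the largest share of mapped reads. That share was 18.7%, against 17.5% to 18.0% in the other MdMYB68 libraries. Contigs that share reads are not independent in such a count. The coefficient of variation over the MdMYB68 libraries had a median of 18.6% for the 19 contigs and 14.5% for all listed contigs, and ranged from 2.95% to 45.3% among the 19. Leaving out each of the 8 libraries in turn, MdMYB68 replicate 3 included, left all 19 calls in place.

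The peroxidases that were left out of the group rose as well. The 12 contigs of AT5G66390 (peroxidase 72) went from 37.9 to 3318 RPM in sum, the 6 of AT5G42180 (peroxidase 64) from 1.35 to 1391, and the 6 of AT5G05340 from 52.4 to 1198. Their median log2 fold changes were 7.27, 8.11 and 3.12, beside 15.03 for the 4 PRX27 contigs and 8.42 for the 7 peroxidase 3 contigs. These fitted medians depend on the prior count where contigs had no empty vector read. From log2 ratios, with such contigs at their lower bound, the medians were 7.51, 8.40 and 3.12, beside 13.90 for PRX27 and 8.38 for peroxidase 3. On that scale peroxidase 3 did not exceed peroxidase 64. Under TMM factors 22 of these 24 left-out contigs stayed higher in direction and 14 were called. Of the 17 contigs described here that were called higher, 16 were also higher and called with TMM factors or DESeq2 size factors in place of library totals, the exception being Nbv5tr6231903. These factors shifted the median of all listed contigs by -2.94 and -2.91 on the log2 scale, and the rise of Nbv5tr6231903, 2.77, was smaller than this shift.

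**Figure D5:**
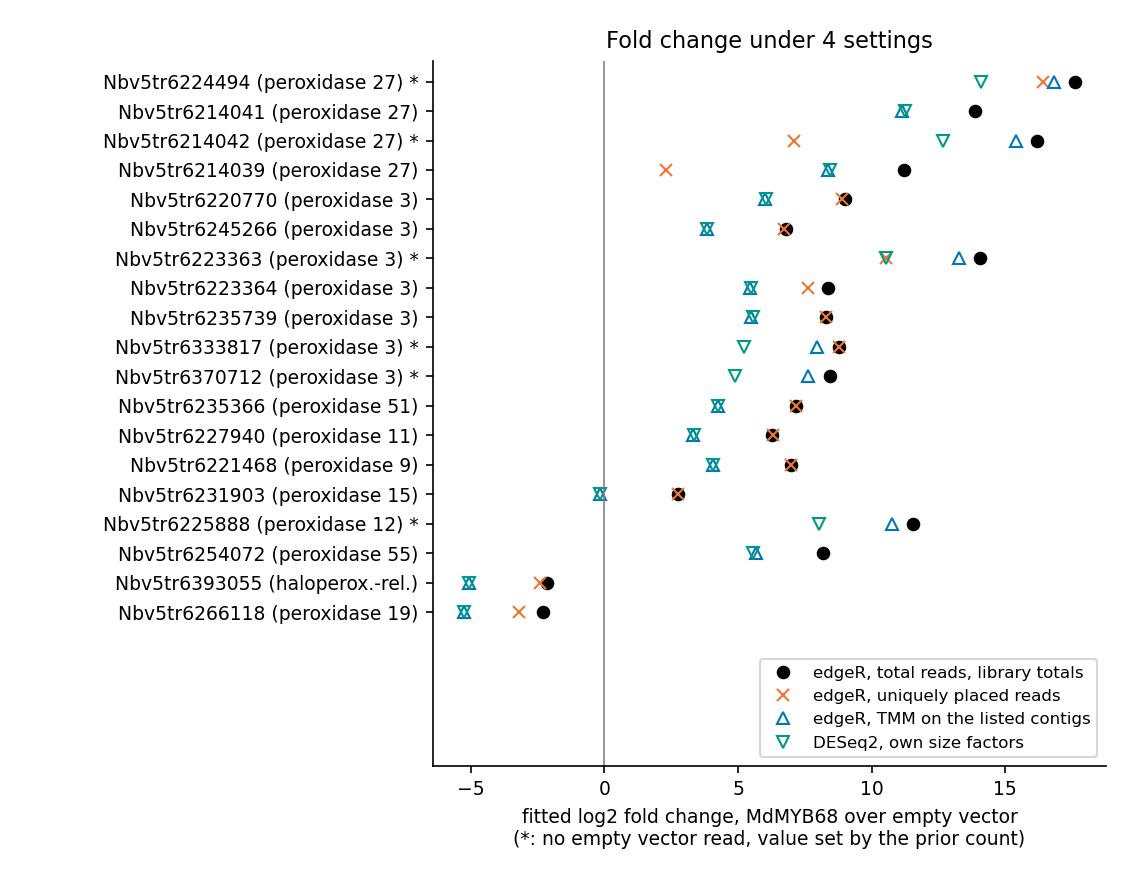
Fitted log2 fold change (MdMYB68 over empty vector) of the 19 contigs under 4 settings, with asterisks on contigs without an empty vector read, whose fitted value is set by the prior count. Contigs without a cross had no uniquely placed read, and Nbv5tr6231903 is the contig that moves from 2.77 to slightly below 0 with TMM or DESeq2 factors.

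Peroxidases draw on hydrogen peroxide, and 27 listed contigs were annotated for its formation or removal. Of these, 23 were called higher and 4 lower, with a median log2 fold change of 5.92. The counts of this and the following lists stand against the 83.4% of all listed contigs that were called higher and the 12.4% called lower. All 6 respiratory burst oxidase contigs, which make the superoxide that gives rise to hydrogen peroxide, were called higher, with log2 fold changes from 6.50 to 7.80. All 8 polyamine oxidase contigs, which release hydrogen peroxide from polyamines, were higher too, from 3.57 to 12.02. The 10 germin-like contigs were divided, 6 higher and 4 lower, and no catalase was listed. The most abundant contig of the list was Nbv5tr6226514, a copper chaperone for superoxide dismutase, at 128 ± 31.1 RPKM with the empty vector, against 1198 ± 50.9 RPKM with MdMYB68 (SD, n = 4 each). Under TMM factors 22 of the 27 contigs were higher in direction and 14 were called higher. Many reads of this list were shared: 12 of the 27 contigs had under 10% uniquely placed reads, and 9 of them had none. On uniquely placed reads 18 contigs could be measured, of which 14 were called higher and 4 lower.

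No ascorbate or glutathione peroxidase was listed. Of 5 peroxiredoxin contigs, which are thiol peroxidases unrelated to the heme enzymes, 3 were called higher and 2 lower, and with TMM factors 1 was higher in direction. The most abundant of them, Nbv5tr6200595, a chloroplast peroxiredoxin Q, went from 40.4 ± 10.4 to 8.34 ± 1.82 RPKM (SD, n = 4 each) and was called lower.

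The substrates and partners of the wall peroxidases were listed in larger number. Of 47 contigs taken by the monolignol pathway keywords, 42 were called higher and 3 lower, with a median log2 fold change of 2.64, lower than that of all listed contigs, and with TMM factors 21 were higher in direction. The calls depended on the scaling, with 13 higher and 12 lower under TMM factors and 14 higher and 15 lower under DESeq2's own size factors. The keywords also took related acyltransferases and esterases, such as the most abundant contig Nbv5tr6232617, annotated as a hydroxycinnamoyltransferase, at 0.148 ± 0.0798 and 1335 ± 102 RPKM (SD, n = 4 each). All 16 laccase contigs, which encode copper oxidases that also couple monolignols, were called higher (median log2 fold change 5.59), led by LAC3 (Nbv5tr6242242) at 0.612 ± 0.111 and 804 ± 186 RPKM (SD, n = 4 each), and 13 were higher in direction with TMM factors. Under these factors 9 laccases were called higher and 1 lower, and under DESeq2's own size factors 11 higher and 1 lower.

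All 18 dirigent contigs, whose products steer the coupling of phenolic radicals, were called higher with a median log2 fold change of 10.99, led by Nbv5tr6205063 at 0.509 ± 0.262 and 1878 ± 142 RPKM (SD, n = 4 each), and all 18 kept this direction with TMM factors. All 14 extensin contigs, wall proteins that peroxidases cross-link, were called higher with a median of 3.41, and 8 of them were higher in direction with TMM factors. Of the extensins 2 were called higher under TMM factors, and 4 higher and 2 lower under DESeq2's own size factors. Since the table holds changed contigs only, these numbers describe listed contigs and not whole families.

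Listed markers of cell types moved in both directions. Of 64 mesophyll contigs, 63 were called lower (median log2 fold change -2.05), and their summed level was between 37033 and 53730 RPKM with the empty vector, against between 8472 and 13182 RPKM with MdMYB68. All 10 Casparian strip membrane protein contigs, which mark root endodermis and organise the wall domain where peroxidases 3, 9, 64 and 72 act in Arabidopsis, were called higher. Their sum was between 0.454 and 1.39 RPKM with the empty vector, against between 1294 and 1578 RPKM with MdMYB68, 1 of the 10 had no empty vector read, and all 10 were also called higher with TMM factors. The xylem keywords were searched in the annotations and not in the gene symbols, and they took no contig. The paper reports contigs under IRREGULAR XYLEM and IRX names as higher with MdMYB68. An empty keyword list therefore does not mean that xylem-related genes were absent from the listed contigs. Of the phloem markers 1 (a PHLOEM PROTEIN 2-like contig) was called higher, from at most 0.384 to at least 2.44 RPKM. The guard cell keywords took 1 contig. It was annotated as the S-type anion channel SLAH1 and not as SLAC1, so it is not read here as a guard cell marker. This SLAH1 contig was called higher, from at most 0.0205 to at least 8.93 RPKM. The phloem contig had no uniquely placed read, and its call was lost with TMM factors, DESeq2's own size factors, limma on log2(RPKM + 0.1) and the replicate number as a block. The part of cell-type composition in the peroxidase values was not tested.

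The listed contigs with the profile most like that of PRX27 Nbv5tr6224494, by Euclidean distance in log2(RPKM + 1) over the 8 libraries, were Nbv5tr6228198, annotated as Casparian strip membrane protein 1, at a distance of 0.66, Nbv5tr6218132, annotated as the transcription factor MYB84, at 0.68, and Nbv5tr6223584, a dirigent-type disease resistance response protein, at 0.75. Their means with MdMYB68 were 517 ± 38.5, 561 ± 35.1 and 785 ± 41.9 RPKM (SD, n = 4 each), and with the empty vector at most 0.204 RPKM. Those most like the peroxidase 3 contig Nbv5tr6220770 were Nbv5tr6232053, annotated as a uclacyanin (UCC3), at 1.46, and the uncharacterised contigs Nbv5tr6263818 and Nbv5tr6223306, at 1.55 and 1.67. Uclacyanin-type contig Nbv5tr6232053 had 1.41 ± 0.577 RPKM with the empty vector, against 1020 ± 94.1 RPKM with MdMYB68 (SD, n = 4 each). The distance is a description of levels over libraries that share 1 contrast.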

How the data were processed

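RNA from N. benthamiana leaves was sequenced as 75 bp reads from 8 libraries. The authors trimmed these reads and used CLC Genomics Workbench to map them to primary and alternate transcriptome contigs. The deposited table gives raw counts of 2 kinds, uniquely placed reads and total gene reads. It also gives RPKM, for which the authors divided by contig length and by the total reads of the primary or of the alternate set. It lists contigs changed at least 4-fold with an RPKM difference of at least 5. Its columns of the authors' fold changes, differences, test p-values and group means were not used, and 0 sample columns were left unused. The read totals of each set were recomputed here from the deposited RPKM values, counts and lengths, and their sum was the library size. In the median library it exceeded the primary total 1.20-fold and the alternate total 5.90-fold, so the RPKM printed here differ from the deposited ones.

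Total gene reads of the 3305 contigs were compared by edgeR 4.0.16 (R 4.3.3) with its quasi-likelihood test. Normalization factors were fixed at 1, the model had no covariate, and p-values were adjusted by Benjamini-Hochberg over all listed contigs (threshold 0.001). The SE is the log2 fold change divided by the square root of F, and at low read numbers it can understate the error of counting. For contigs without an empty vector read it does not measure the error of the fold change, which has no finite estimate there. Ratios, exact permutation tests of log2(RPKM + 1) and Clopper-Pearson intervals were computed in Python 3.11.15 (pandas 2.3.3, numpy 2.4.6, scipy 1.17.1), with matplotlib 3.10.9 for figures. The steps were tested on simulated data. As alternatives, TMM factors, uniquely placed reads, each library left out, the replicate number as a block, a threshold of 0.05, a 2-fold null hypothesis, a filter at a mean of 10 reads, reference-set totals, limma 3.58.1 on log2(RPKM + 1) or log2(RPKM + 0.1), and DESeq2 1.42.0 with size factors of its own or from the library totals were tried.

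Every peroxidase contig is named. From each keyword list the contig with the highest mean level may be named, and as similar profiles the 3 nearest contigs. The members and lists were chosen with earlier results of these data known. The primers come from the study's primer sheet.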

Additional observations from a re-analysis of the deposited data

Results flagged for a closer look

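In 50 groups of 4 libraries examined for a library far from the other 3, 7 were found. The rate of about 5% that chance gives does not hold for empty vector groups with few reads. There 1 read against none is enough for a flag, so the number found cannot be set against that rate. In the empty vector group, Nbv5tr6214041 had 0.0562 RPKM in replicate 2 and 0 in the others, Nbv5tr6254072 had 0.0587 RPKM in replicate 1 and 0 in the others, and Nbv5tr6235739 had 0 RPKM in replicate 1 and between 0.0278 and 0.0298 in the others. Each of these rests on 1 or 2 reads in a library. The summed PRX27 contigs had 0 RPM in empty vector replicate 3 and between 0.0620 and 0.0681 in the others, with or without Nbv5tr6224494, which had no empty vector read. The flags with and without this contig are therefore the same values. With MdMYB68, the sum of Nbv5tr6214039, Nbv5tr6214041 and Nbv5tr6214042 was 796.1 RPM in replicate 3 and between 631.9 and 652.1 in the others. Over all listed contigs, uniquely placed reads made up 82.7% of the reads in empty vector replicate 2 and between 81.5% and 81.6% in the other empty vector libraries.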

How the results depend on the processing

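Of the 19 contigs, 17 were called higher and 2 lower with DESeq2 on library totals, reference-set totals, both limma fits, a minimum mean of 10 reads, a 2-fold null hypothesis, a threshold of 0.05 and each library left out. With TMM factors or DESeq2's own size factors 16 were called higher and 2 lower, and Nbv5tr6231903 changed sign, to -0.17 and -0.15. With uniquely placed reads 15 contigs could be measured, of which 12 were called higher and 1 lower. The median log2 fold change of 8.35 became 7.11 with uniquely placed reads, 5.66 with TMM factors, 5.49 with DESeq2's own size factors, and 5.10 and 6.71 with limma after adding 1 and 0.1 RPKM, and ranged from 8.24 to 8.47 with each library left out. Over all listed contigs, the share of calls that were higher was 87.0%, but 61.2% with TMM factors (964 higher, 612 lower) and 62.1% with DESeq2's own size factors (1227 higher, 750 lower). With the replicate number as a block, 15 of the 19 contigs were called higher and 1 lower, the calls lost being Nbv5tr6370712, Nbv5tr6333817 and Nbv5tr6266118 (edgeR adjusted p of 0.0025, 0.0021 and 0.0039), with log2 fold changes of 8.41, 8.75 and -2.35 that were close to those without the block. Deviations of libraries with the same number correlated across 3272 contigs at -0.10 to 0.017, and those of libraries with different numbers at -0.11 to 0.16. No pairing by number was seen, but so few libraries cannot exclude it.

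Depth limits the empty vector side: 6 contigs had no read and 3 others had 1 to 3, so their ratios are bounds or carry wide counting intervals. In 9 of the 19 contigs under 10% of the reads were uniquely placed, against 22.9% of all listed contigs, and the levels of these 9 depend on how shared reads were divided.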
